A study of Mus musculus with 8 samples.

Results

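The transcript levels of mouse bone marrow progenitors carrying the leukaemia fusion gene PML-RARa were set against those of the same kind of cells carrying another leukaemia fusion gene, MLL-AF9, both with Ring1b present. There is 1 library on each side, 2 of the 8 libraries of the series, so no difference has a replicate and no test between the oncogenes is possible within the pair. Both were C57BL/6 lineage-negative cells, enriched for haematopoietic stem and progenitor cells with a kit, transduced, and kept for 72 h with ethanol. The labels describe every group, controls included, as Ring1a-/- and Cdkn2a-/-, so by their labels the compared cells lack the sister ligase of Ring1b and the INK4A/ARF tumour suppressors. Beside the pair stand the HOXA9-transduced cells and the cells labelled NT, for which the labels state no transduced gene, both Ring1b WT and with ethanol. The PML-RARa and MLL-AF9 cells treated with OHT (4-hydroxytamoxifen) for 72 h are labelled Ring1b KO and form a second pair. The age and the number of the mice, and whether an OHT culture and its ethanol control started from the same transduced cells, are not stated in the labels.

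PML-RARa joins the nuclear body protein PML to the retinoic acid receptor alpha, binds retinoic acid response elements and drives acute promyelocytic leukaemia. MLL-AF9 joins the N-terminal part of the histone methyltransferase MLL (gene Kmt2a) to AF9 (gene Mllt3), a partner of the elongation machinery and of DOT1L, and keeps HOXA genes and Meis1 active in leukaemic cells. Ring1b (gene Rnf2) and Ring1a (gene Ring1) are sister enzymes, either of which can serve PRC1, a Polycomb complex that attaches ubiquitin to histone H2A and keeps developmental genes silent.

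A value is a normalised read count as deposited, on 1 scale over all 8 libraries. The PML-RARa library holds 5992257 recovered reads and the MLL-AF9 library 5342836, and the 8 libraries run from 4226751 to 6998223. A transcript at the lowest entry of a library has 1 read there, which may also stand for none, and 16.2% of transcripts are at it in PML-RARa cells and 18.2% in MLL-AF9 cells. Rnf2, the gene of Ring1b, had 990.4 in PML-RARa and 769.8 in MLL-AF9 cells. In the Ring1b KO libraries it still had 771 and 767, so the level of its transcript does not separate the labelled genotypes, and which part of the gene is removed is not stated. Ring1 (179.9 in PML-RARa, 166 in MLL-AF9 cells) and Cdkn2a (66.0 and 42.4) had reads as well although both are labelled as deleted. Of the mouse genes joined in the fusions, Mllt3 had 127 in PML-RARa and 19.1 in MLL-AF9 cells, Kmt2a 777 and 1605, Rara 44.0 and 15.9, and Pml 46.9 and 52.9. Whether the introduced genes are of human or mouse sequence is not stated, so these levels do not check the labels of the oncogenes. Neutrophil markers were high in both libraries, with 9 of 9 measured and a summed value of 10152 in PML-RARa and 13792 in MLL-AF9 cells. Xist, the RNA of the inactive X chromosome, and the Y-linked Ddx3y were both present in both libraries. Xist had 683 in PML-RARa and 3118 in MLL-AF9 cells, and Ddx3y 1275 and 1253. The other Y-linked genes read were not alike. The log2 ratio, PML-RARa over MLL-AF9, was -2.09 for Eif2s3y, 0.44 for Kdm5d and 0.67 for Uty. The part of the sex of the donor cells in the results was not tested.

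More transcripts were higher than lower in PML-RARa cells. Of 19353 transcripts, 10979 reached a value of 20 in at least 1 of the compared libraries. Of these, 1683 (15.3%) were at least 2-fold higher in PML-RARa than in MLL-AF9 cells and 937 (8.53%) at least 2-fold lower, on the scale of value + 1. The other 8359 (76.1%) lay within 2-fold, and the median log2 ratio over the 10979 was -0.06. The higher transcripts also lay further out: 979 of the 1683 were at least 4-fold and 304 at least 16-fold higher, against 307 and 59 of the 937 lower ones. In MLL-AF9 cells 260 of the 1683 higher transcripts had 3 reads or fewer, and in PML-RARa cells 67 of the 937 lower ones had. At the limit of 20, AA414768 (20.1 in PML-RARa, 12.7 in MLL-AF9 cells) was just inside and Xrra1 (19.1 and 8.47) just outside. At the limit of 2-fold, Gm3414 (49.8 and 101) was inside and Lrdd (347 and 696) outside.

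**Figure D1:**
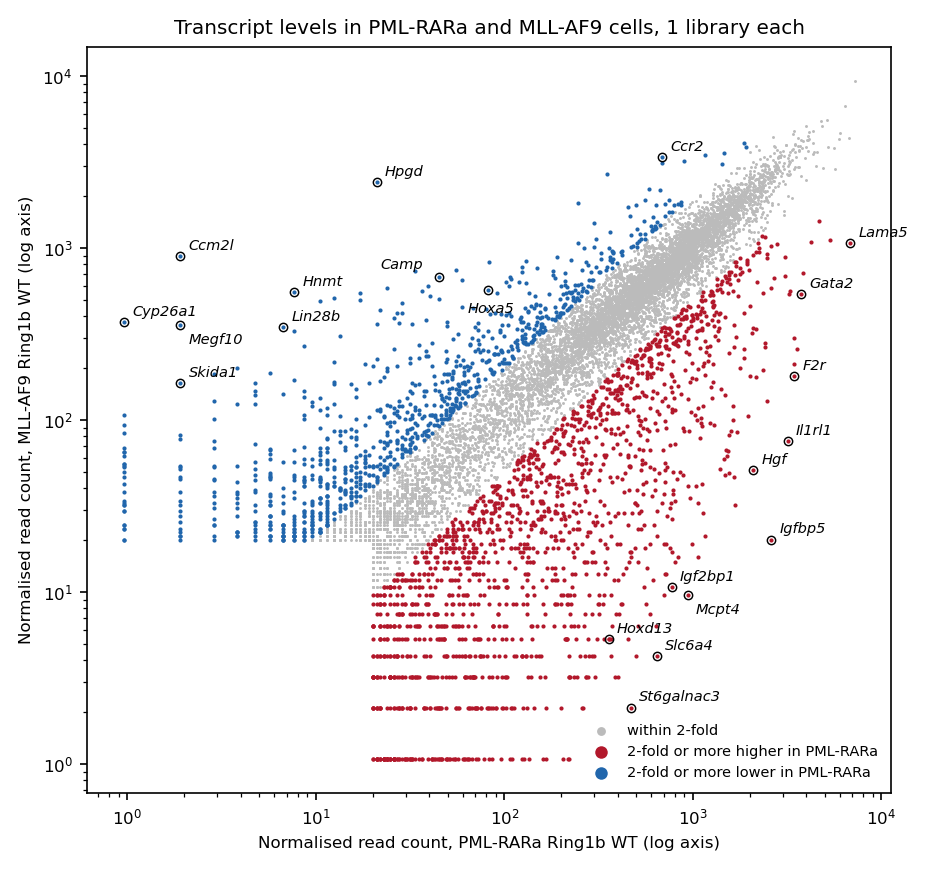
Normalised read count of each of the 10979 transcripts in PML-RARa cells (horizontal, log axis) and in MLL-AF9 cells (vertical, log axis), 1 library each. Red points are the 1683 transcripts at least 2-fold higher in PML-RARa cells, blue points the 937 at least 2-fold lower and grey points the 8359 within 2-fold; black circles mark named genes, and 979 red points but 307 blue points lie at least 4-fold off the diagonal.

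The median value of the 1683 higher transcripts was 153 in PML-RARa, 21.2 in MLL-AF9, 81.4 in HOXA9 and 59.6 in NT cells. The median of the 937 lower transcripts was 26.8 in PML-RARa, 107 in MLL-AF9, 65.6 in HOXA9 and 54.6 in NT cells. Both sets were chosen on the compared libraries, so nothing is read from where the HOXA9 and NT medians fall.

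The 12 largest ratios in favour of PML-RARa cells were those of St6galnac3, Slc6a4, Igfbp5, Mcpt-ps1, Fndc5, Cadm3, Pxdc1, Maob, Abca1, Mcpt4, Rprm and Il13, with log2 ratios between 6.40 and 7.24. St6galnac3, a sialyltransferase, had 469.8 in PML-RARa and 2.12 in MLL-AF9 cells. Igfbp5, which encodes a binding protein of insulin-like growth factors, had 2596 in PML-RARa and 20.1 in MLL-AF9 cells, a 129-fold difference with a 95% counting interval of 82.5 to 215. Intervals of this kind cover counting error and no difference between cultures. Igfbp5 also had 2333 in NT but 29.9 in HOXA9 cells. Among the 12, Maob, Rprm, Pxdc1, Cadm3, Mcpt4 and the pseudogene Mcpt-ps1 showed that same layout, high in PML-RARa and NT and low in MLL-AF9 and HOXA9 cells. Maob, a monoamine oxidase, for instance had 498 in PML-RARa, 4.24 in MLL-AF9, 5.81 in HOXA9 and 1697 in NT cells. Fndc5, the precursor of irisin, had 218 in PML-RARa cells and stood at the lowest entry in MLL-AF9 cells, a difference of at least 68.7-fold when 3 reads are taken as the floor of the library.

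The 12 largest ratios in favour of MLL-AF9 cells were those of Ccm2l, Cyp26a1, Megf10, Hpgd, Hnmt, Skida1, Kcnk12, Eltd1, Sdc2, Lin28b, Tshr and Sash1, with log2 ratios between -8.26 and -5.42. Ccm2l, a relative of the vascular adaptor gene Ccm2, had 1.91 in PML-RARa and 893 in MLL-AF9 cells. Hpgd, whose enzyme inactivates prostaglandins, had 21.1 in PML-RARa and 2407 in MLL-AF9 cells, with 955 in HOXA9 and 24.8 in NT cells. It was 114-fold lower in PML-RARa cells, with a counting interval of 75.3 to 183. Here the HOXA9 library lay near the MLL-AF9 one and the NT library near the PML-RARa one. Kcnk12, a potassium channel gene, stood at the lowest entry in PML-RARa cells, against 107 in MLL-AF9 and 200.2 in NT cells.

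Ranked by the difference in level, Lama5 led the higher transcripts with 6799.5 in PML-RARa and 1062 in MLL-AF9 cells. It encodes a laminin chain, and Cdh1 (E-cadherin; 3570.1 and 257) and Ahnak (3445 and 211) were other adhesion and cytoskeleton genes among the 8 first. Csf2rb2, the mouse-specific second beta chain of the IL-3 receptor, had 5333 in PML-RARa and 1111 in MLL-AF9 cells, and the glucose transporter gene Slc2a3 4245 and 1074. Reads of Csf2rb2 and its near-identical neighbour Csf2rb may have been split between them. The largest difference downwards was that of Ccr2, the monocyte chemokine receptor, with 689.9 in PML-RARa and 3378 in MLL-AF9 cells. It was followed by Xist and Hpgd, given above, and by Cgnl1 (349 and 2677), Baz2b (1157 and 3476), Sgms2, a sphingomyelin synthase gene (900.4 and 3201), the complement component C3 (1874 and 4064) and Baz1a (1457 and 3578).

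Mast cell and basophil genes formed the group most often higher in PML-RARa cells among the 38 gene lists read. Mast cells and basophils carry the IgE receptor, store histamine and proteases in granules, and arise from progenitors that keep the transcription factor GATA2 active. Of 31 measured members 28 reached 20; 25 were at least 2-fold higher in PML-RARa cells, against 15.3% of all transcripts, and 0 lower. The median log2 ratio of the 28 was 3.48. A member that reached 20 only through the library where it is high lies past 2-fold more readily, so this and the other list counts are descriptions, to be read against the 15.3% higher, 8.53% lower and 76.1% within 2-fold of all transcripts.

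Promoters of a pair of these protease genes are shown because their levels differ strongly between the libraries and because GATA factors act on mast cell genes. They are the 250 bases before the start of transcription in RefSeq, build GRCm38.p6, on the strand of the gene, with matches to a GATA hexamer (A or T, then GATA, then A or G, on either strand) in capitals.
Mcpt4 (chr14:56062311-56062560, minus strand): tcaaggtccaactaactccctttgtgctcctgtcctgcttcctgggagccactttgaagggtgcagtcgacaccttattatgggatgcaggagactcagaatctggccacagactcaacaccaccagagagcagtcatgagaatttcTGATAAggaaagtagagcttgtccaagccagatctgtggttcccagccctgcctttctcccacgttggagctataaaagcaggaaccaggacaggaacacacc
Cma1 (chr14:55944676-55944925, minus strand): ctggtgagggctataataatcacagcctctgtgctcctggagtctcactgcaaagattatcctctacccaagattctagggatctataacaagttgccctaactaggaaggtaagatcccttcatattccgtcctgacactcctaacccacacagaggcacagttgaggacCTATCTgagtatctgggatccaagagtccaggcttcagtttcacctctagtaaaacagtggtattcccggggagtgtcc
The match lies 103 to 98 bases before the start in Mcpt4, and 79 to 74 bases before it, on the other strand, in Cma1. A match to one of these hexamers was found in 16 of 26 promoters (61.5%) of the 22 higher mast cell and basophil genes with a RefSeq promoter, in 18.0% of the promoters of all higher genes and in 21.9% of those of lower genes. The share was 16.9% in the promoters of all genes at 20 or more, and 26.5% in all 32851 promoters. A match is a run of letters and not a measured binding site, and the hexamers were chosen with the results known. The 22 genes were picked by their values in the compared libraries and include close paralogues, so their promoters are not separate cases. The part of GATA factors in these levels was not tested.

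Granule proteases came first in this group. Mcpt4, a chymase, had 939 in PML-RARa and 9.53 in MLL-AF9 cells, with 9.13 in HOXA9 and 1078 in NT cells. Cma1, another chymase, had 1520.5 in PML-RARa and 61.4 in MLL-AF9 cells, with 83.9 in HOXA9 and 1409.8 in NT cells. The PML-RARa and NT libraries were thus high and the MLL-AF9 and HOXA9 libraries low for both. The tryptase gene Tpsb2 had 1507 in PML-RARa and 66.7 in MLL-AF9 cells, Tpsg1 514 and 6.35, and Mcpt2 337 and 5.29. Cpa3, mast cell carboxypeptidase, differed less, with 2413 in PML-RARa and 281 in MLL-AF9 cells, and the basophil protease Mcpt8 had 1111 and 343. Because the Mcpt and tryptase genes are close paralogues, and the way shared reads were counted is not stated, the split among them is uncertain.

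Of the receptor genes, Fcer1a, the alpha chain of the IgE receptor, had 1162 in PML-RARa and 21.2 in MLL-AF9 cells, and its beta chain Ms4a2 82.3 and 11.6. Il1rl1, the receptor of IL-33, had 3178 and 75.2, a 42.3-fold difference with a counting interval of 33.4 to 54.3. The gamma chain of the IgE receptor, Fcer1g, which other Fc receptors share, had 756 and 668 and thus lay within 2-fold. Among the regulators, Gata2 had 3765 in PML-RARa and 536 in MLL-AF9 cells, and Gata1 539 and 58.2. Tal1, a partner of both GATA factors, had 1318 and 308, and Zfpm1, the GATA1 cofactor FOG1, 1135 and 119.7. All of these except Fcer1g were higher in PML-RARa cells, and in NT cells Gata2 had 3379 and Gata1 680.1.

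Named genes of histamine, serotonin and prostaglandin handling, which form no list of their own, differed in both directions. Hdc, which makes histamine, had 3069.7 in PML-RARa and 688 in MLL-AF9 cells, and Slc18a2, which loads monoamines into vesicles, 2357 and 196. Hnmt, which inactivates histamine, had 7.66 and 552, and so was lower in PML-RARa cells. Slc6a4, the serotonin transporter, had 645 and 4.24, and Maob, which breaks down monoamines, was higher as given above. Hpgds, which makes prostaglandin D2, had 199 and 20.1, while Hpgd, which degrades prostaglandins, was lower as given above. The lipoxygenase genes Alox5 (3249.5 and 537) and Alox15 (453 and 5.29) and the leukotriene enzyme Ltc4s (78.5 and 25.4) were higher.

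Of the 9 mast cell markers, 8 reached 20 and all 8 were higher, and their summed value was 9074 in PML-RARa, 801 in MLL-AF9, 2365 in HOXA9 and 10083 in NT cells. Tpsab1 stood at the lowest entry in MLL-AF9 cells. RNA was taken from whole cultures, so more cells of a type and more RNA per cell cannot be told apart here or in the groups that follow. Of 13 eosinophil genes measured 8 reached 20, with 5 higher and 1 lower in PML-RARa cells and a median log2 ratio of 2.16. Alox5, Alox15 and Gata1, given above, are 3 of the 5. Ccr3 (21.1 in PML-RARa, 3.18 in MLL-AF9 cells) and Prg3 (305 and 79.4) were the other higher ones, Prg2 was within 2-fold (716 and 863) and eosinophil peroxidase, Epx, was lower (373 and 826). The 5 eosinophil markers, unlike the list median, were lower in PML-RARa cells when summed (1416 in PML-RARa, 1773 in MLL-AF9 cells).

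**Figure D2:**
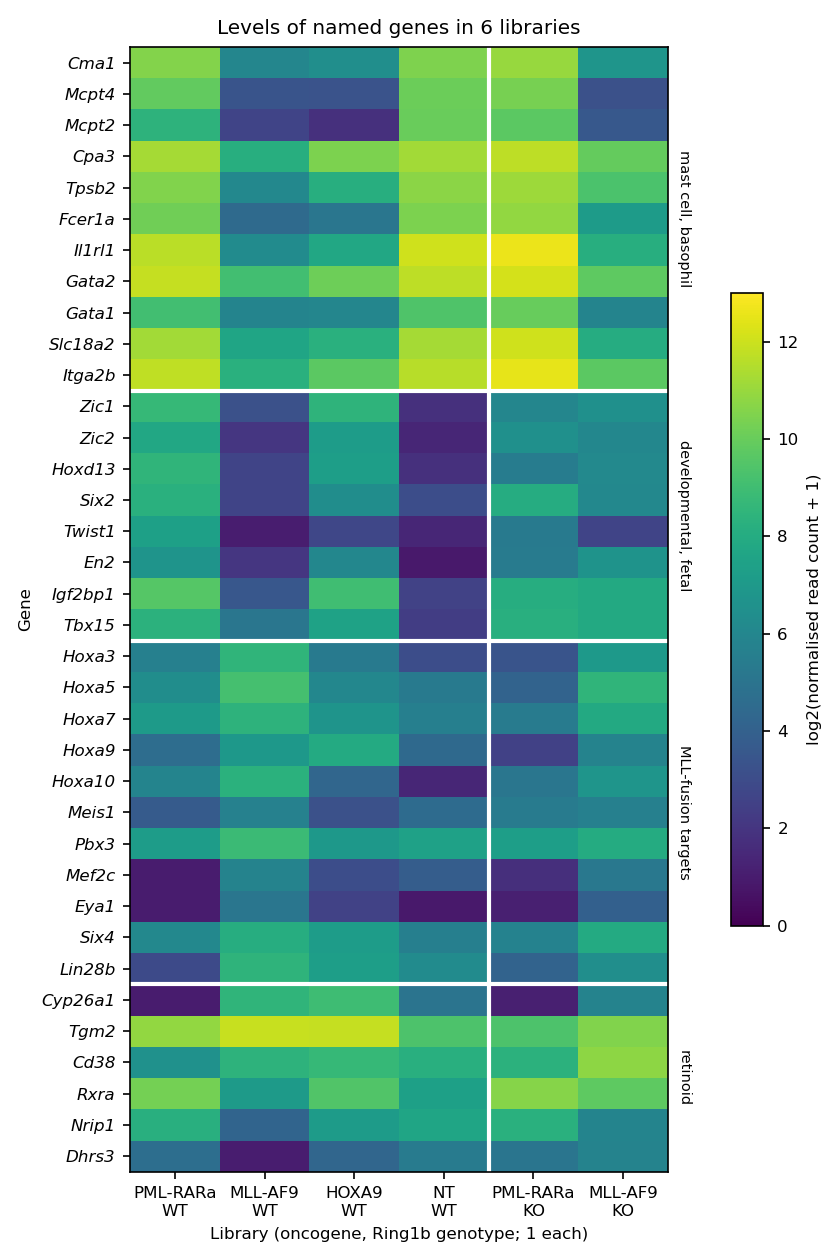
Levels of 36 named genes (rows) in 6 libraries (columns), as the log2 of the normalised read count plus 1, with 1 library per column; the last 2 columns are the Ring1b KO libraries. Mast cell and basophil genes are bright in PML-RARa and NT cells and darker in MLL-AF9 and HOXA9 cells, and the developmental and fetal genes except Twist1 are brighter in the PML-RARa and HOXA9 than in the MLL-AF9 and NT libraries with Ring1b WT.

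Megakaryocyte and erythroid genes, which GATA factors also control, were more often higher than lower. Of 24 measured megakaryocyte and platelet genes 18 reached 20, and 11 of them were higher in PML-RARa cells, against 15.3% of all transcripts, and 0 lower, with a median log2 ratio of 1.30. Itga2b and Itgb3, the subunits of the platelet fibrinogen receptor, had 3435 and 2009 in PML-RARa cells, against 301 and 179 in MLL-AF9 cells. Gp5 and Gp1ba, subunits of the von Willebrand factor receptor, had 185 and 329 in PML-RARa cells, against 8.47 and 72.0 in MLL-AF9 cells. Of the genes for proteins of the platelet alpha granule, the chemokine genes Pf4 (94.7 in PML-RARa, 34.9 in MLL-AF9 cells) and Ppbp (26.8 and 11.6) were higher, and Vwf (110.0 and 157) and Selp (30.6 and 51.9) lay within 2-fold. The summed value of the 5 megakaryocyte markers was 3764 in PML-RARa and 365 in MLL-AF9 cells, and 4585 in NT cells. Itga2b alone gave 3435 of the PML-RARa sum and 301 of the MLL-AF9 sum. Slc6a4 is counted both in the megakaryocyte and platelet list and in the mast cell and basophil list, so these lists are not separate. Of 24 measured erythroid genes 14 reached 20, with 7 higher and 0 lower. Epor, the erythropoietin receptor, had 256 in PML-RARa and 29.6 in MLL-AF9 cells, Rhag, a red cell membrane protein, 229.7 and 10.6, and Klf1, a regulator of erythroid genes, 109 and 18.0. The haem enzymes Fech (598 and 703) and Urod (503 and 397) lay within 2-fold. Alas2 and Slc4a1, which mark maturing red cells, stood at the lowest entry in MLL-AF9 cells, and the 4 erythroid markers summed to 149 in PML-RARa and 22.2 in MLL-AF9 cells. Klf1 alone gave 109 and 18.0 of these sums and was the 1 marker of the 4 that reached 20. With OHT the 4 markers summed to 36.9 in PML-RARa and 39.6 in MLL-AF9 cells.

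HOXA genes, the best known targets of MLL fusions, were mostly lower in PML-RARa cells. Of 16 measured genes of the HOXA cluster and of the HOX cofactors, 15 reached 20, and 10 of these were at least 2-fold lower, against 8.53% of all transcripts, and 2 higher. The median log2 ratio was -1.69. Hoxa5 had 82.3 in PML-RARa and 566 in MLL-AF9 cells, with 63.9 in HOXA9 and 38.9 in NT cells. Hoxa3 had 49.8 and 368, with 39.0 and 7.45 in HOXA9 and NT cells, and Hoxa10 56.5 and 313, with 18.3 and 1.65. For these genes the MLL-AF9 library was the highest of the 4 ethanol libraries. Hoxa9 itself had 23.9 in PML-RARa and 122 in MLL-AF9 cells, 249.9 in cells with introduced HOXA9 and 20.7 in NT cells.

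Hoxa11 had 433 in PML-RARa, 743 in MLL-AF9, 246 in HOXA9 and 4.14 in NT cells, and Hoxa4 36.4 in PML-RARa and 44.5 in MLL-AF9 cells, so both lay within 2-fold. Several HOX genes overlap antisense transcripts and the library kit does not mark the strand, so reads of either strand are counted together. Among the cofactors, Meis1 had 12.4 in PML-RARa and 51.9 in MLL-AF9 cells and Pbx3 146 and 470.1, while Pbx4 (143 and 62.5) was higher in PML-RARa cells. HOX genes of the other clusters were mostly below 20. Of 26 measured, 8 reached it, 3 being higher and 2 lower in PML-RARa cells. Hoxd13 had 357 in PML-RARa and 5.29 in MLL-AF9 cells, Hoxc9 51.7 and 1.06, Hoxb13 42.1 and 180.0, and Hoxb2 6.7 and 40.2. The posterior genes Hoxd13 and Hoxb13 thus differed in opposite directions.

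Other genes bound or raised by MLL fusions were split. Of 30 measured 26 reached 20, with 5 higher, 9 lower and a median log2 ratio of -0.49. The count turned to 3 higher and 2 lower of 15 with a minimum of 100, and the 9 lower became 6 with a pseudocount of 10. Lower in PML-RARa cells were Mef2c, a MADS-box factor (0.957 in PML-RARa, 55.1 in MLL-AF9 cells), Eya1 (0.957 and 32.8) and its partner Six4 (66.0 and 275). Mef2c and Eya1 stood at the lowest entry in PML-RARa cells. Skida1, known as a target of MLL fusions in human leukaemia, had 1.91 in PML-RARa, 164 in MLL-AF9, 2.49 in HOXA9 and 7.45 in NT cells. Within 2-fold were Myb (100.5 in PML-RARa, 149 in MLL-AF9 cells), Cdk6 (493 and 752) and Flt3 (51.7 and 75.2). Higher in PML-RARa cells were Itgb3, already named, Zfp521 (31.6 and 1.06), Gpr56 (88.0 and 11.6), Id2 (1194 and 359) and Bcl2 (721 and 341). The list of MLL complex and DOT1L elongation genes had 16 of 19 members at 20 or more, of which 12 lay within 2-fold, a share near the 76.1% of all transcripts, Dot1l among them (1223 and 1081).

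Retinoic acid genes gave no common direction. In normal cells retinoic acid receptors paired with RXR activate their targets when retinoic acid is bound, and the CYP26 enzymes break the hormone down. Of 30 measured genes 17 reached 20, with 8 higher and 4 lower in PML-RARa cells, and with a minimum of 100 the count was 3 higher and 4 lower of 11. The most separate gene was Cyp26a1, which stood at the lowest entry in PML-RARa cells, against 368 in MLL-AF9, 504 in HOXA9 and 30.6 in NT cells. With a floor of 3 reads it was at least 128-fold lower in PML-RARa than in MLL-AF9 cells. Its promoter is shown because it carries a known type of response element for the receptor that the fusion contains. The capitals mark a direct repeat of receptor half-sites (A or G, then G, then G or T, then TCA) spaced by 5 bases, read on the opposite strand, 32 to 16 bases before the start, in RefSeq build GRCm38.p6.
Cyp26a1 (chr19:37697558-37697807, plus strand): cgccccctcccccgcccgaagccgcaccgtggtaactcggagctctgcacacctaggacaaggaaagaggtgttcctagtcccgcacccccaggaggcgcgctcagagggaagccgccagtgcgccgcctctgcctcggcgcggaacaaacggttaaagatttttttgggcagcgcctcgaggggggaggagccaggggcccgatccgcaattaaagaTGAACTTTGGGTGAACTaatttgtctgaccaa
Direct repeats with a spacing of 1, 2 or 5 were found in 140 of 32851 promoters (0.426%), in 3 of 1565 promoters of the higher genes (0.192%) and in 1 of 897 of the lower genes (0.111%). Among all genes at 20 or more they were found in 24 of 10337 promoters (0.232%), close to the share of the higher genes. The window ends 250 bases before the start, and no match there says nothing of elements further away.

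Other retinoid genes lower in PML-RARa cells were Tgm2, a transglutaminase (1918 in PML-RARa, 3863 in MLL-AF9 cells), Cd38 (94.7 and 335) and the corepressor Ncor1 (123 and 294). Higher were the receptor genes Rxra (1264 and 134), Rara (44.0 and 15.9) and Rarg (28.7 and 12.7). With a pseudocount of 10 the log2 ratio of Rarg was 0.77, within 2-fold. Also higher were Nrip1, a corepressor of nuclear receptors (289.9 and 16.9), Aldh1a3, which makes retinoic acid (153 and 51.9), and the retinal reductase Dhrs3, which stood at the lowest entry in MLL-AF9 cells and had 24.9 in PML-RARa cells. Targets of the hormone were thus found on both sides. Aldh1a3 had 1880.4 in HOXA9 cells, more than in either compared library. Of the 14 PML nuclear body genes measured, 12 reached 20. Only Hipk2, a kinase of these bodies, was at least 2-fold higher (40.2 in PML-RARa, 4.24 in MLL-AF9 cells) and 0 were lower. Sp100 had 769 and 1536, just within 2-fold.

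Transcription factors of embryonic patterning, silent in most blood cells and classic targets of Polycomb complexes, were found at 20 or more for 17 of 59 measured. Of these 13 were higher in PML-RARa cells and 3 lower, against 15.3% and 8.53% of all transcripts. The summed value of the 59 was nevertheless no higher in PML-RARa cells, with 2918 in PML-RARa, 3108 in MLL-AF9, 2261 in HOXA9 and 339 in NT cells. Zic1 had 414 in PML-RARa and 8.47 in MLL-AF9 cells, with 349 in HOXA9 and 2.48 in NT cells. Zic2 had 220.1 and 3.18, with 146 in HOXA9 and 1.65 in NT cells, and Six2 309 and 5.29, with 83.0 and 7.45. These genes were thus high in PML-RARa and HOXA9 cells and low in MLL-AF9 and NT cells. Twist1 had 166 in PML-RARa cells but 5.81 in HOXA9 cells, and stood at the lowest entry in MLL-AF9 cells. Among the lower ones were Pax8 (27.7 in PML-RARa, 367 in MLL-AF9 cells) and Hnf4a (13.4 and 39.2). Irx5 lay within 2-fold (241 and 364) and had 0.827, the lowest entry, in NT cells.

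Of 22 stromal, endothelial and epithelial genes measured 8 reached 20, with 5 higher and 0 lower in PML-RARa cells. Epcam, an epithelial adhesion protein, had 889 in PML-RARa and 47.6 in MLL-AF9 cells, with 354 in HOXA9 and 20.7 in NT cells. Krt18, a simple epithelial keratin, had 726 and 52.9, with 316 and 17.4 in HOXA9 and NT cells, and Col4a1, a basement membrane collagen, 1695 and 303, with 1588 and 45.5. The 6 stromal and endothelial markers, Epcam among them, summed to 978 in PML-RARa and 92.1 in MLL-AF9 cells. Epcam alone gave 889 and 47.6 of these sums and so carried the difference between them, and 2 of the 6 reached 20. Col1a2 stood at the lowest entry in both and Cdh5, which marks endothelium, in PML-RARa cells. The part of other cells in the cultures was not tested.

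Fetal growth and imprinted genes differed both ways, with 14 of 22 measured at 20 or more, 5 higher and 3 lower. Igf2bp1, an RNA-binding protein of fetal tissues, had 772 in PML-RARa and 10.6 in MLL-AF9 cells, with 519 in HOXA9 and 4.96 in NT cells. Hmga2, a chromatin protein of fetal stem cells, had 402 and 90.0. Lin28b and Lin28a, which block maturation of the let-7 microRNAs that repress Igf2bp1 and Hmga2, had 6.7 and 130.1 in PML-RARa cells, against 346 and 624 in MLL-AF9 cells. The LIN28 genes and the other fetal genes named were thus on opposite sides. The imprinted RNAs were also split, with H19 at 36.4 in PML-RARa cells and the lowest entry in MLL-AF9 cells, and Meg3 at the lowest entry in PML-RARa and 49.8 in MLL-AF9 cells.

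**Figure D3:**
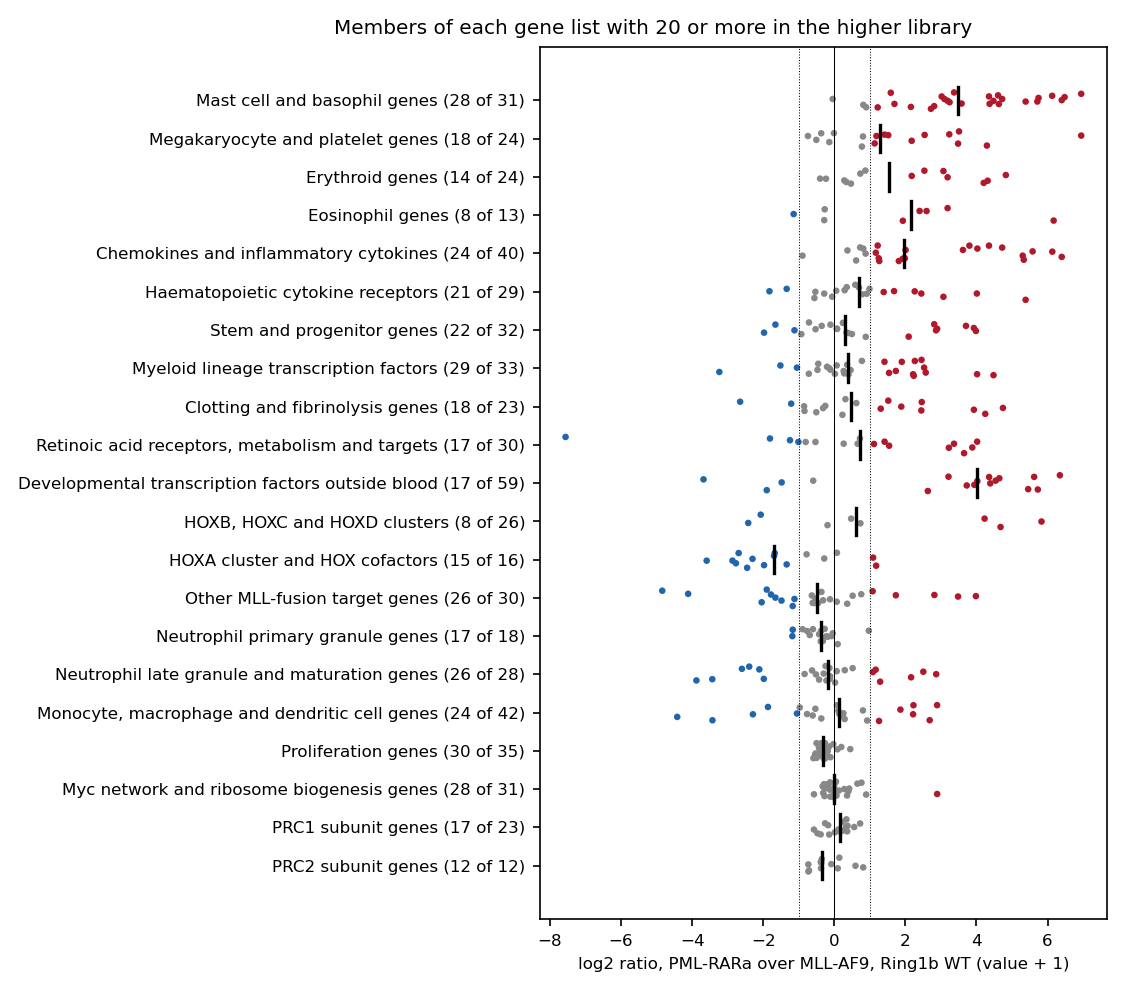
Log2 ratio, PML-RARa over MLL-AF9, of each member (point) of 21 gene lists (rows, with the number at 20 or more of the number measured), Ring1b WT libraries, value + 1. Black bars are list medians, dotted lines mark 2-fold, red points are at least 2-fold higher and blue points at least 2-fold lower in PML-RARa cells; mast cell genes lie to the right, HOXA genes to the left, and proliferation and PRC2 genes between the dotted lines.

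Neutrophil granule genes differed by gene. Of 18 measured genes of the primary granule, made by promyelocytes, 17 reached 20, with 15 within 2-fold, 0 higher and 2 lower in PML-RARa cells. The shares within 2-fold and lower are near the 76.1% and 8.53% of all transcripts. Most of the 17 are abundant: 2 remain without transcripts over 0.5 reads per base or of unknown length. Ratios of such abundant transcripts may be compressed. Myeloperoxidase, Mpo, had 3410.3 in PML-RARa and 4588 in MLL-AF9 cells, Prtn3 964 and 1788, and Elane, neutrophil elastase, 789 and 1776. Elane and Lyz2 (321 and 727) were the 2 lower ones. Of 28 genes of the later granules and of maturation, 26 reached 20, with 6 higher and 6 lower. Among the lower ones Camp, the cathelicidin precursor, had 45.0 in PML-RARa, 676 in MLL-AF9, 395 in HOXA9 and 723 in NT cells. Itgb2l had 32.5 and 361, with 1502 in NT cells, and Cd177, a neutrophil surface protein, 247 and 1068, with 2050.1. For these the PML-RARa library was the lowest of the 4. Higher in PML-RARa cells were Cxcr2, the receptor of neutrophil chemokines (1876 and 256), Anxa1 (1191 and 266) and Mmp8, a granule collagenase (1559.7 and 696). Ngp (1191 and 1839) and S100a8 (456 and 541) lay within 2-fold.

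Monocyte, macrophage and dendritic cell genes were mixed, with 24 of 42 measured at 20 or more, 6 higher and 5 lower in PML-RARa cells, or 2 higher and 5 lower of 15 with a minimum of 100. Vcam1, an adhesion molecule, had 33.5 in PML-RARa and 737 in MLL-AF9 cells, Cybb, the catalytic subunit of the phagocyte oxidase, 59.3 and 648, and Irf8, a monocyte and dendritic cell regulator, 269.8 and 560.1. With Ccr2, these were lower. Higher were Emr1, which encodes the macrophage antigen F4/80 (1659 and 354) and Gpnmb (285 and 119). Csf1r, the M-CSF receptor, lay within 2-fold (336 and 274). The summed markers of these cells were 2489 in PML-RARa and 1208 in MLL-AF9 cells. Emr1 alone gave 1659 and 354 of these sums and so carried the difference between them. Marco stood at the lowest entry in both libraries, and C1qa and C1qc in MLL-AF9 cells. In the MHC class II list 7 of 14 measured reached 20, with 3 higher and 3 lower. The surface chain genes H2-Aa (35.4 and 11.6) and H2-Ab1 (649 and 314) were higher in PML-RARa cells. The peptide-loading genes H2-DMa (136 and 549.5), H2-DMb1 (147 and 465) and H2-Ob (69.9 and 346) were lower. H2-Oa lay within 2-fold with a log2 ratio of 0.54, and the remaining higher member was Cd86 (log2 ratio 2.61).

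Chemokines and cytokines were mostly higher. Of 40 measured 24 reached 20, with 18 higher in PML-RARa cells and 0 lower, against 15.3% and 8.53% of all transcripts. Hgf, hepatocyte growth factor, had 2084 in PML-RARa and 50.8 in MLL-AF9 cells, and the type 2 cytokines Il13 and Il4 262 and 81.3 in PML-RARa cells, against 2.12 and 2.12 in MLL-AF9 cells. Il6 had 689.9 and 32.8, Ccl2 553 and 10.6, and the eosinophil chemokine gene Ccl24 366 and 4.24. Il4, Il6 and Il13 are also among the mast cell genes above. Tnf had 14.4 and 27.5, within 2-fold. Of the interferon response genes, 19 of 33 reached 20, with 2 higher (Oasl2, 258 and 19.1, and Usp18, 24.9 and 4.24) and 5 lower, among them Ifit2 (12.4 and 166) and Oas2 (10.5 and 90.0).

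Among cytokine receptors, 21 of 29 reached 20, with 7 higher and 2 lower. Il18r1, the IL-18 receptor, had 715 in PML-RARa and 43.4 in MLL-AF9 cells. Csf2ra, the GM-CSF receptor alpha chain, was lower (749 and 1898), as was Il21r (69.9 and 249.9), and Il3ra lay within 2-fold (663 and 691). The receptors thus differed gene by gene. Of 33 lineage transcription factors measured 29 reached 20, with 12 higher, 3 lower and 14 within 2-fold, against 15.3%, 8.53% and 76.1% of all transcripts. In the OHT pair, 1 was higher and 9 lower of 30. The granulocyte regulators Cebpa (1872 and 2074), Cebpe (973 and 810.0) and Spi1 (1188 and 1368) lay within 2-fold with Ring1b present. Gfi1, a repressor needed for neutrophils, had 11.5 in PML-RARa and 116 in MLL-AF9 cells, and Cebpd 257 and 738. The immediate early genes Fosb (1627 and 99.5), Fos (1038 and 174), Nr4a1 (1366 and 289) and Egr2 (304 and 62.5) were higher in PML-RARa cells, while Egr1 (3234 and 2666) and Junb (1581 and 1199) lay within 2-fold. Of the stem cell genes, Mycn (573 and 76.2) and Cd34 (83.2 and 10.6) were higher and Mecom (29.7 and 65.7) and Lmo2 (19.1 and 62.5) lower in PML-RARa cells.

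Acute promyelocytic leukaemia is known for bleeding and clotting, and of 23 clotting and fibrinolysis genes measured 18 reached 20, with 8 higher and 2 lower in PML-RARa cells, against 15.3% and 8.53% of all transcripts. In the OHT pair, described further on, 5 were higher and 7 lower of 20, with a median log2 ratio of -0.20. The thrombin receptor gene F2r had 3437 in PML-RARa and 180.0 in MLL-AF9 cells, with 2116 in NT cells. F2rl1 had 281 and 9.53, and Plau, the urokinase gene, 345 and 62.5. S100a10, which with Anxa2 forms the plasminogen receptor, had 717 and 289, and Anxa2 1739 and 1399, within 2-fold. F3, tissue factor, lay within 2-fold (26.8 and 48.7), and Tfpi, its inhibitor, was lower in PML-RARa cells (11.5 and 77.3), as was F5 (280.4 and 651).

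Proliferation genes lay within 2-fold, and genes of the G1 control were past 2-fold about as often as all transcripts. Of 35 proliferation genes measured 30 reached 20 and all 30 lay within 2-fold, with log2 ratios between -0.59 and 0.45. Mki67, for instance, had 3739.5 in PML-RARa and 4243 in MLL-AF9 cells. Without transcripts over 0.5 reads per base or of unknown length, whose ratios may be compressed if abundant, 13 remained, 0 of them past 2-fold. Of 15 cyclin D, CDK and CDK inhibitor genes measured 14 reached 20, with 2 higher, 1 lower and 11 within 2-fold. These shares are near the 15.3%, 8.53% and 76.1% of all transcripts. Ccnd1, cyclin D1, had 1226 in PML-RARa and 96.4 in MLL-AF9 cells, with 832 in HOXA9 and 146 in NT cells. Ccnd2 (3439 and 2880.1) lay within 2-fold. Of the INK4 inhibitors of CDK4 and CDK6, Cdkn2b had 544 in PML-RARa and 90.0 in MLL-AF9 cells and Cdkn2c 123 and 775. Cdkn2b was thus higher and Cdkn2c lower in PML-RARa cells. Of 28 Myc network and ribosome biogenesis genes at 20 or more, of 31 measured, Mycn was the 1 past 2-fold. In the BCL2 family 2 of 14 were higher, Bcl2 and Bmf (417 and 143), and 2 lower, Bcl2a1a (5.74 and 31.8) and its near-identical copy Bcl2a1b, shares near those of all transcripts (15.3% and 8.53%). Perp, a p53 target and desmosome gene, had 1962 and 105, whereas Mdm2 (1141 and 1206) and Cdkn1a (66.0 and 52.9) lay within 2-fold.

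Of 28 lysosome and macrophage lipid genes measured 20 reached 20, with 4 higher in PML-RARa cells, a share near the 15.3% of all transcripts, and 0 lower. Abca1 and Abcg1, which export cholesterol, had 387 and 1219 in PML-RARa cells, against 3.18 and 239 in MLL-AF9 cells. Pltp, a phospholipid transfer protein, had 221 and 3.18, and Lpl, lipoprotein lipase, 595 and 52.9. These were the 4 higher ones. The lipid carrier gene Apoe (227 and 329), the lipid droplet gene Plin2 (1236 and 925) and the lysosomal genes Lamp1 (2054 and 2047) and Ctsd (2818 and 2296) lay within 2-fold. Of 27 cholesterol and fatty acid synthesis genes at 20 or more, of 28 measured, Scd1 (2682 and 670.3) and Lss (1339 and 655) were higher and 0 lower. Polycomb genes lay within 2-fold: 0 of the 17 PRC1 genes and 0 of the 12 PRC2 genes at 20 or more were past 2-fold, with Bmi1 at 873 in PML-RARa and 688 in MLL-AF9 cells and Eed at 500.4 and 468.

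The OHT-treated libraries give the same contrast in other libraries, with Ring1b labelled KO and 1 library a side. There 10877 transcripts reached 20, of which 1365 (12.5%) were at least 2-fold higher in PML-RARa than in MLL-AF9 cells and 1097 (10.1%) lower. Of the 1683 transcripts higher with Ring1b present, 681 (40.5%) were also higher in the OHT pair, which is 49.9% of the OHT list. Of the 937 lower ones, 336 (35.9%) were also lower, or 30.6% of the OHT list. In the opposite direction past 2-fold were 151 (8.97%) of the higher and 27 (2.88%) of the lower transcripts. When the 4 libraries were fitted together with the treatment as a term (edgeR's quasi-likelihood test, 1 residual degree of freedom), 0 of 10344 transcripts had an adjusted p under 0.05. The smallest adjusted p was 0.12, and 865 were higher and 553 lower at an unadjusted p under 0.05.

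**Figure D4:**
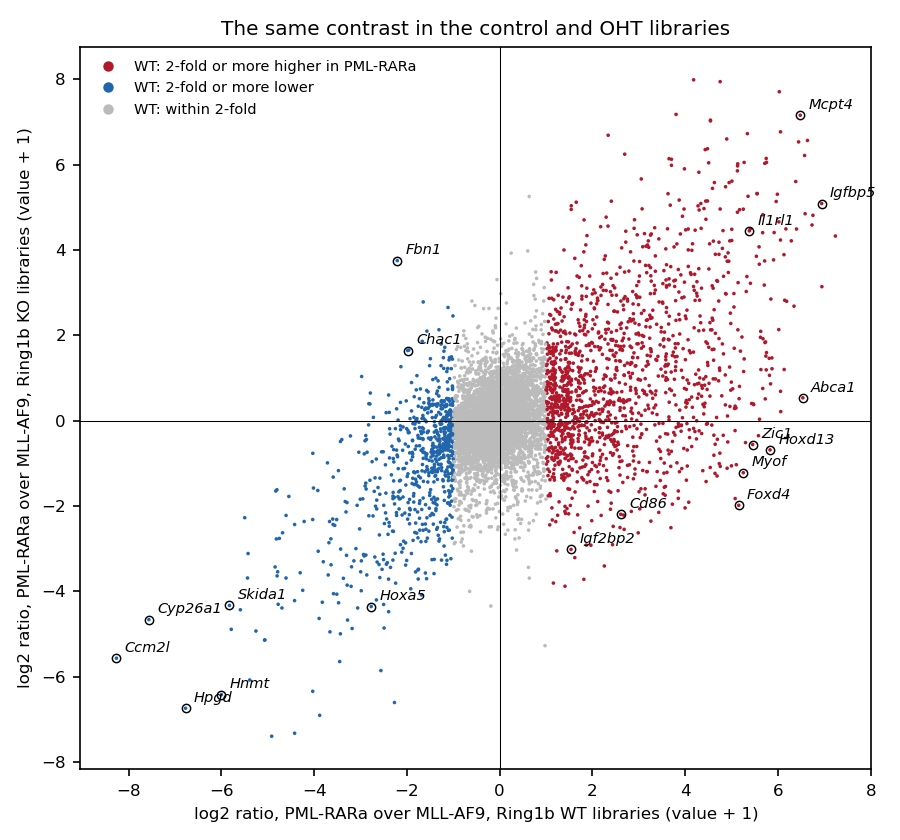
Log2 ratio, PML-RARa over MLL-AF9, in the Ring1b WT libraries (horizontal) and in the Ring1b KO libraries (vertical), value + 1, for transcripts at 20 or more in both pairs, 1 library per oncogene and pair. Mast cell genes such as Mcpt4 and Il1rl1 are at the upper right and Hpgd, Hnmt and Hoxa5 at the lower left, while Hoxd13 and Zic1 lie near 0 on the vertical axis.

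Mast cell genes were again mostly higher and HOXA genes mostly lower in PML-RARa cells in the OHT pair. Of 29 mast cell and basophil genes at 20 or more there, 23 were higher and 1 lower, with a median log2 ratio of 2.89. Mcpt4 had 1312 in PML-RARa and 8.19 in MLL-AF9 cells with OHT, and Il1rl1 6188 and 282. Of the HOXA genes and cofactors 11 of 15 were lower and 1 higher, with a median of -2.44, and Hoxa5 had 16.7 and 362. Hpgd (15.5 and 1764), Hnmt (3.57 and 392) and Cyp26a1 (1.19, the lowest entry, and 54.6) were lower in PML-RARa cells in this pair too.

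The patterning factors were not mostly higher in that pair. Of 17 at 20 or more in the OHT pair, 2 were higher and 7 lower in PML-RARa cells, with a median log2 ratio of -0.49. Zic1 had 60.7 in PML-RARa and 90.0 in MLL-AF9 cells with OHT, and Hoxd13 42.8 and 69.6. For both, the OHT value was lower than the ethanol value in PML-RARa cells and higher in MLL-AF9 cells. Igf2bp1 had 270.2 and 233, within 2-fold. Monocyte and interferon genes were in the OHT pair mostly lower in PML-RARa cells: 22 of 34 and 21 of 30 at 20 or more were at least 2-fold lower and 0 higher. The monocyte markers there summed to 9086 in PML-RARa and 12812 in MLL-AF9 cells. Chemokines and cytokines, higher as a group with Ring1b present, had 11 higher and 14 lower of 36. Abca1 had 1277 and 881 with OHT, which lie within 2-fold of each other. None of these differences between the pairs was tested.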

How the data were processed

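Per the submitters' processing notes, TopHat, DESeq and build mm9 were used, with no version or order given; the read counter and annotation are not stated. Per the file headers, the signal columns of the 4 deposited tables hold the authors' normalised read count per RefSeq transcript and library. Division by the lowest value of a library gave whole reads for 100% of values (tolerance 0.02). From these, the log2 of (PML-RARa value + 1) over (MLL-AF9 value + 1) was taken for transcripts at 20 or more in the higher library, with 2-fold as the limit and exact 95% counting intervals for folds. For scale, the exact Poisson interval of a single count of 100 reads runs from 81.4 to 122, and a fold carries the counting error of both libraries. A ratio on the value + 1 scale understates differences of low transcripts. Reads per transcript were at most 1.86 per base. If counts level off near that value, which was not tested, ratios of the most abundant transcripts may be compressed. Among transcripts with a known length, 109 of 1667 higher and 23 of 914 lower ones exceeded 0.5 reads per base. Of all those at 20 or more, 1366 of 10834 (12.6%) did.

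The comparison, the 38 gene lists, the motifs and the rule for named genes were chosen with earlier results of these data known. The rule took the 12 largest ratios and 8 largest differences each way, list members, genes of the constructs, Rnf2, Ring1 and Cdkn2a, and the 5 most extreme genes each way of opposite direction in the OHT pair, with 1 transcript per symbol; a few genes that it names are not reported here. Symbols turned into serial numbers (35) were restored by RefSeq identifier. The library steps show that the 8 libraries were scaled together, so levels are compared across tables. edgeR 4.0.16 (R 4.3.3) on the recovered reads of 4 libraries was added after the data were seen. The calculations were tested on simulated data. Promoters are RefSeq's, build GRCm38.p6; no coordinates of the authors' build mm9 are used.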

Additional observations from a re-analysis of the deposited data

Results flagged for a closer look

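A set of genes was past 2-fold in opposite directions in the Ring1b WT and the Ring1b KO pair. With 1 library per oncogene and pair, the difference between the pairs was not tested. The log2 ratios are PML-RARa over MLL-AF9. Counting 1 transcript per symbol, 150 genes were higher in PML-RARa cells with Ring1b present and lower with OHT, and 25 the other way. Counted by transcript, 8.97% of the higher ones were lower in the KO pair, against 10.1% of the 10877 transcripts counted in that pair. Of the lower ones, 2.88% were higher in the KO pair, against 12.5% of the 10877. Opposite directions were thus no more frequent than these background shares, and the genes below are named as descriptions only.

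Among the 150, the 5 with the largest ratio with Ring1b present were Myof, a membrane repair protein (-1.22 in the KO pair, 5.25 in the WT pair), Foxd4 (-1.99 and 5.15), Pgap1 (-1.06 and 4.997), Amn (-1.03 and 5.10) and Fabp3, a fatty acid binding protein (-1.83 and 5.08). Myof had 1035 in PML-RARa and 2418 in MLL-AF9 cells with OHT, and 1127 and 28.6 with ethanol, so the MLL-AF9 libraries carried most of that difference. Foxd4 had 4.76 and 21.8 with OHT, and 110.0 and 2.12 with ethanol. Among the 25, the 5 with the smallest ratio with Ring1b present were Gm16386 (1.03 in the KO pair, -2.97 in the WT pair), Fbn1, fibrillin (3.75 and -2.21), Sox13 (1.26 and -2.13), Chac1, a glutathione-degrading enzyme (1.64 and -1.98), and Cited4 (1.65 and -1.96).

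Of the gene lists, 23 members were opposite, 21 of them higher in the WT pair. Among these were the immune genes Cd86 (-2.20 in the KO pair, 2.61 in the WT pair), Il7r (-2.48 and 2.45), Il13ra1 (-2.21 and 1.68), Spp1 (-3.72 and 1.82), Ccl5 (-1.40 and 4.03), Cxcl16 (-2.35 and 1.99), Nos2 (-2.22 and 1.25), Tlr5 (-1.07 and 4.04), Tlr9 (-1.61 and 1.51), Oasl2 (-2.51 and 3.69), Usp18 (-1.17 and 2.31), Itgax (-1.03 and 1.86), H2-Ab1 (-1.29 and 1.04) and Mmp9 (-1.71 and 1.09). Among developmental and fetal genes were En2 (-1.24 in the KO pair, 4.64 in the WT pair), Lhx1 (-1.10 and 4.54) and Igf2bp2 (-3.02 and 1.54). Others were Fos (-1.10 and 2.57), Procr (-1.12 and 3.93) and the platelet chemokine Ppbp (-2.33 and 1.14). Mecom (1.22 in the KO pair, -1.12 in the WT pair) and F5 (1.47 and -1.21) were the 2 that were lower in the WT pair. Summed monocyte markers were 9086 in PML-RARa and 12812 in MLL-AF9 cells with OHT, and 2489 and 1208 with ethanol. The ethanol sum in PML-RARa cells was mostly that of Emr1, as given above. The part of monocytes in these values was not tested.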

How the results depend on the processing

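The counts of higher and lower transcripts depended on the minimum value: 1001 and 494 with 100 or more in the higher library, and 2563 and 1777 with no minimum, against 1683 and 937. The test of 4 libraries, chosen after the data were seen, gave 0 higher and 0 lower at an adjusted p under 0.05, with 1 residual degree of freedom. The other 40 recomputed counts and shares lay within 1.5 times of the reported values (another pseudocount, a minimum of 10, total-read and TMM scaling, median centring, 1 transcript per symbol, removal of transcripts over 0.5 reads per base, counting intervals that exclude 1). The median log2 ratio of B, T and NK cell genes turned to -0.073 with no minimum, against 2.73; 68 other list medians moved, and 311 did not. Of the values of named genes 76 moved and 3084 did not, and 0 past 2-fold changed sign. Among those that came within 2-fold were Rarg, Ppbp, Mecom, Gp9 and Pecam1 with a pseudocount of 10, and Irf8, Kmt2a, Tgm2 and Rrm2b with median centring. With a pseudocount of 10, 9 megakaryocyte and platelet genes were higher, against 11. At that setting 3 interferon response genes were lower, against 5. The median over all transcripts stayed between -0.18 and 0. No paired analysis was possible because the labels number no replicates and each group has 1 library. With 1 library a side, a difference may belong to that culture and not to the oncogene, and this cannot be told apart.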

Other observations

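Genes of lymphoid development were read in both libraries although most defining lymphoid markers were near the lowest entry. Of 33 B, T and NK cell genes measured 10 reached 20, with 6 higher and 1 lower in PML-RARa cells. Gata3, a T cell and innate lymphoid regulator, had 234 in PML-RARa and 3.18 in MLL-AF9 cells, with 98.8 in HOXA9 and 45.5 in NT cells. Tcf7, which encodes the Wnt effector TCF1, had 477 and 28.6, with 253 and 33.9 in HOXA9 and NT cells. Cd79b, a chain of the B cell receptor, was the lower one, with 58.4 in PML-RARa and 208 in MLL-AF9 cells. The 6 markers of B, T and NK cells summed to 68.9 in PML-RARa and 224 in MLL-AF9 cells, with Cd3d and Klrb1c at the lowest entry in PML-RARa and Cd3e in MLL-AF9 cells.

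Complement genes and integrins differed by gene. C3ar1, the receptor of the C3a fragment, had 1551 in PML-RARa and 48.7 in MLL-AF9 cells, and Cd55, which shields cells from complement, 1417 and 151. Both were higher in PML-RARa cells, while C3 was lower. Cd55 kept its direction with OHT (2030.4 in PML-RARa, 162 in MLL-AF9 cells), and C3ar1 had 2303 and 1829.5 there. Itgb7, the homing integrin of mast cell progenitors and lymphocytes, had 2419 and 266, whereas the common leukocyte integrin Itgb2 (2272 and 2629) and Itga4, the partner of Itgb7 (1476 and 1487), lay within 2-fold. The low-affinity Fc receptor gene Fcgr4 was lower in PML-RARa cells (41.1 and 204). Among pattern sensors, Tlr2 (1098 and 431) was higher and Tlr4 (596 and 1343) lower.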
